A study of Mus musculus with 282 samples.

Results

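The cells compared here were 56 TNF-treated granulocyte-monocyte progenitors (GMPs) whose NfkB response was classed as oscillatory and 76 TNF-treated GMPs whose response was classed as transient, out of 282 single-cell samples in all. A cell entered if the authors' deposited table of cells that passed quality control gave TNF as its cytokine and either class as its response type. The 1-plate experiment held 20 oscillatory and 25 transient cells, and the 2-plate experiment held 36 oscillatory and 51 transient cells. All cells were picked one by one from bone marrow GMP cultures after 8 h under a confocal microscope. The donor mice were male and female, 12 to 19 weeks old, homozygous for GFP-p65 and heterozygous for H2BmCherry, so every oscillatory, transient and blank cell carried both reporters. The sources used here do not give the cytokine dose, the rule that separates the classes or the tie of cells to animals. Messenger RNA was read by an adapted Smart-Seq2 protocol, which amplifies polyadenylated RNA from 1 cell. Response type is an entry of the cell table that describes NfkB dynamics under the microscope, and no transcript value was used here to choose cells.

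GMPs sit in the bone marrow as the shared precursor of granulocytes and monocytes. TNF binds receptors at the cell surface and sets off a kinase cascade that removes inhibitor proteins from NfkB, and p65 (RelA), a subunit of NfkB, then moves into the nucleus. NfkB induces some of its own inhibitors, which carry it back to the cytoplasm, so nuclear p65 can rise once and fall or rise repeatedly. A GFP tag on p65 makes this movement visible in living cells, and a red histone marks the nucleus. The comparison asks how the transcriptomes of cells classed as oscillatory differed from those of cells classed as transient.

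The files give genes as Ensembl mouse identifiers without names, and 0 of the 55450 identifiers matched the reference names used here. NfkB target genes, inhibitors, receptors and lineage markers could therefore not be looked up, the GMP label was not checked against markers, and genes are described as groups, with 4 identifiers given in full. Reads per cell ran from 325684 to 2873386 in oscillatory cells (median 1537056) and from 193116 to 3380416 in transient cells (median 1299498). Median reads were higher in oscillatory cells in both experiments, 950619 against 837709 in the 1-plate and 1924509 against 1603605 in the 2-plate experiment. The median cell had 9982 detected genes in the oscillatory and 9909 in the transient class. Detected genes were under 8000 in 5 oscillatory and 7 transient cells, all on Plate2 of the 2-plate experiment. Whether depth or RNA quality had a part in the results was not tested beyond the settings with cells thinned to 1 depth (shallower cells dropped) and with cells of few detected genes left out, given beside the counts below.

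Cell cycle phases, as the authors' table assigns them, were not spread alike over the classes in these samples. In the 1-plate experiment 2 of 20 oscillatory cells were in S phase (10%, exact 95% interval 1.24 to 31.7%), against 7 of 25 transient cells (28%, 12.1 to 49.4%). In the 2-plate experiment 2 of 36 oscillatory cells were in S phase (5.56%, 0.680 to 18.7%), against 12 of 51 transient cells (23.5%, 12.8 to 37.5%). The S-phase share was thus lower among oscillatory cells in both experiments, and the intervals of the classes overlapped in both. G2M was the most frequent phase in either class, with 64.3% of oscillatory cells (36 of 56) and 51.3% of transient cells (39 of 76). G1 held 28.6% of oscillatory cells (16 of 56) and 23.7% of transient cells (18 of 76). These intervals cover counting error over cells only, and no test was made, since cells of 1 experiment are not replicates.

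**Figure D1:**
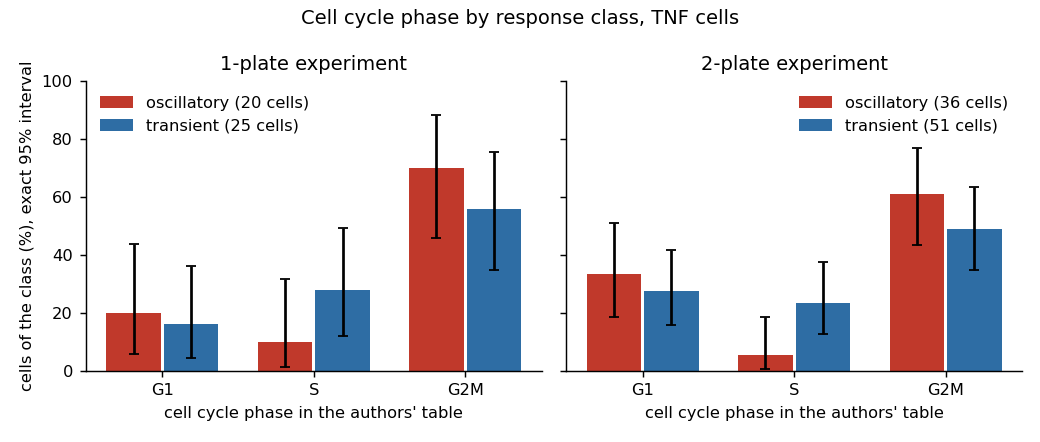
Share of TNF cells in each cell cycle phase (vertical axis, percent of the class, bars with exact 95% binomial intervals) in oscillatory (red) and transient (blue) cells of the 1-plate (left) and 2-plate (right) experiments. The S bars of oscillatory cells stand at 10% and 5.56%, against 28% and 23.5% in transient cells, with overlapping intervals.

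Oscillatory and transient cells differed in 259 genes, most of them higher in oscillatory cells. For the test, reads were summed over the cells of each class within each experiment, so that n is 2 experiments, and edgeR's quasi-likelihood test with an experiment term was run on 8361 genes that reached 10 CPM (reads scaled to the library total) in at least 50% of the 10 class sums. At a Benjamini-Hochberg adjusted p under 0.05, 211 genes were higher (2.52% of those tested) and 48 were lower (0.574%) in oscillatory cells, together 3.1%. The median log2 fold change, oscillatory over transient, was 1.27 over the higher genes (0.63 to 3.87), -1.22 over the lower genes (-5.55 to -0.58) and -0.02 over all genes tested. Of the higher genes 71.6% differed by at least 2-fold and 36 genes by at least 4-fold, and of the lower genes 29 and 13 did.

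The size of the call depended on the settings. With edgeR's default low-count filter, which tests 16586 genes, 27 were higher (0.163%) and 6 lower (0.0362%), and 32 of the 33 were among the 259. Without the experiment term, or without the 1-plate experiment, edgeR called 0 genes, while 533 and 1091 had an unadjusted p under 0.05, against 1351 in the full comparison. The fit without the 1-plate experiment took the plates of the 2-plate experiment as its units, although they belong to 1 experiment. With spike-in scaling 0 genes were higher and 1 lower, and the median of all genes moved by more than 0.1 on the log2 scale, to 0.16. DESeq2 called 423 higher genes among 584 in all on the same sums. Thinning cells to 458260 reads gave 207 higher and 59 lower genes in edgeR. That setting also left out shallower cells, so it changed the cells compared: it kept 20 of 25 transient cells and every oscillatory cell of the 1-plate experiment, and 34 of 36 oscillatory and 46 of 51 transient cells of the 2-plate experiment. Leaving out cells with under 8000 detected genes gave 231 higher and 59 lower genes. In every one of these settings all of the 259 genes that could be tested kept their direction. The settings refit all or part of the same cells, so this describes the calls and does not test them.

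Calls were more frequent among genes of higher level. The higher genes' median level in oscillatory cells was 157.4 CPM in the 1-plate experiment and 138.6 CPM in the 2-plate experiment, against 59.9 and 57.1 CPM in transient cells. For the lower genes the medians were 54.1 and 38.4 CPM in oscillatory cells, against 160.9 and 88.6 CPM in transient cells. Among genes averaging under 100 CPM 1.68% were called higher and 0.449% lower, among genes of 100 to 1000 CPM 4.57% and 0.791%, and among the 73 genes at 1000 CPM or more 8.22% and 4.11%. This average was taken over the oscillatory and transient sums themselves. A class difference therefore shifts a gene's level, and the shares by level are a description. Taken as a block, the 211 genes held 7.75% and 7.54% of the reads of oscillatory cells in the 1-plate and 2-plate experiments, against 3.63% and 3.53% in transient cells. The 48 genes held 0.673% and 0.694% in oscillatory cells, against 1.47% and 1.48% in transient cells. These genes were chosen on the same reads, so the block shares describe the size of the difference and are no further test of it.

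Part of the called genes were read in nearly every cell of both classes and differed in amount, a smaller share than among all genes tested. Of the 211 higher genes 96 (45.5%) had a read in at least 90% of the cells of both classes in both experiments. So did 17 of the 48 lower genes (35.4%), against 54.1% of all genes tested. A smaller group differed in the share of cells with a read. The share was at least 20 percentage points larger in oscillatory than in transient cells, in both experiments, for 36 of the 211 higher genes (17.1%, against 1.09% of all genes tested). It was at least 20 points smaller for 8 of the 48 lower genes (16.7%, against 0.299% of all genes). The medians over the higher genes were 100% and 97.2% of oscillatory cells with a read, against 96% and 88.2% of transient cells. Both groups of genes were called on the same reads, so an excess over all genes tested is a description and no further test. The shares were counted without thinning, and median reads were higher in oscillatory cells in both experiments. In thinned cells the median share over the higher genes was still larger in oscillatory cells. The part of depth in the 20-point counts was not tested.

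The identifiers given in full show the largest differences among called genes that met limits on plates, cells and the share of reads from 1 cell. They had the largest absolute log2 fold changes in each direction among called genes that went the same way on all 3 plates, had reads in at least 25% of the cells of the higher class, and drew at most 50% of that class's reads from a single cell. This was met by 202 higher and 44 lower genes. Because these were picked for the size of their fold change, their fold changes lie at the extreme of the range.

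The first higher gene, ENSMUSG00000021614, had reads in 70% (1-plate) and 77.8% (2-plate) of the oscillatory cells, against 36% and 41.2% of the transient cells. In the 1-plate experiment single oscillatory cells ran from 0 to 790 CPM with a median of 33.6, against 0 to 180.2 CPM with a median of 0 in transient cells. In the 2-plate experiment oscillatory cells ran from 0 to 736 CPM with a median of 24.5, against 0 to 168.8 CPM with a median of 0 in transient cells. The ranges of the classes overlapped in both experiments, and no transient cell stood above 180.2 CPM. Summed over cells it stood at 226 and 117.5 CPM in oscillatory cells, against 17.7 and 8.60 CPM in transient cells, or 12.8-fold and 13.7-fold higher. By plate of the 2-plate experiment the difference was 29.5-fold on Plate1, against 8.44-fold on Plate2. The fitted log2 fold change was 3.79 ± 0.75 (SE, n = 2 experiments, edgeR adjusted p = 0.0433). Sums of blank non-responsive cells stood at 7.87 CPM (1-plate) and 42.86 CPM (2-plate). TNF non-responsive cells stood at 35.13 CPM in the 2-plate experiment. In that experiment both non-responsive classes were thus above transient cells. The 3 TNF non-responsive cells of the 1-plate experiment stood at 239.8 CPM, with 95.71% of the reads from 1 cell. No test was made of these levels.

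The second, ENSMUSG00000023349, had reads in 80% and 88.9% of the oscillatory cells, against 64% and 62.7% of the transient cells. Single oscillatory cells of the 1-plate experiment reached 4284 CPM with a median of 101.8, against 463 CPM with a median of 4.54 in transient cells. In the 2-plate experiment oscillatory cells reached 1675 CPM with a median of 33.5, against 607 CPM with a median of 5.89 in transient cells. Either class had cells with 0 reads of it in both experiments. The classes overlapped, and the sums stood at 1083 and 259 CPM in oscillatory cells, against 40.98 and 61.1 CPM in transient cells. The difference was 26.4-fold in the 1-plate experiment, against 4.23-fold in the 2-plate experiment, and within the 2-plate experiment it was 2.66-fold on Plate1 and 11.8-fold on its second plate. In the 1-plate experiment the 4 oscillatory G1 cells summed to 3543 CPM and the 14 in G2M to 355 CPM. G1 and G2M sums were higher in oscillatory cells in both experiments. In S phase, with 2 oscillatory cells an experiment, they were lower, at 0.738 and 21.8 CPM against 13.1 and 82.1 CPM in transient cells. The fitted log2 fold change was 3.4 ± 0.56 (SE, n = 2 experiments, edgeR adjusted p = 0.0256). Sums of blank non-responsive cells stood at 17.38 and 8.69 CPM, below transient cells. TNF non-responsive cells stood at 121.7 CPM (1-plate, 3 cells) and 129.3 CPM (2-plate), between the transient and oscillatory sums. In these 1 cell gave 76.68% and 66.29% of the reads, and no test was made of these levels.

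The first lower gene, ENSMUSG00000028909, had reads in 20% and 13.9% of the oscillatory cells, against 60% and 37.3% of the transient cells. Oscillatory cells reached at most 15.2 and 2.59 CPM, with medians of 0 in both experiments. Transient cells reached 102.02 CPM (median 2.73) and 177.2 CPM (median 0). The sums stood at 1.31 and 0.188 CPM in oscillatory cells, from 25 and 12 reads, against 14.2 and 15 CPM in transient cells, or 10.9-fold and 79.7-fold lower. On Plate1 of the 2-plate experiment it was 28.8-fold lower, while 5 of 22 oscillatory cells (22.7%) had reads, against 6 of 23 transient cells (26.1%). On Plate2 of the 2-plate experiment oscillatory cells had 0 reads of it, against 22 CPM in transient cells. Of those transient cells 13 of 28 had reads, and 1 cell gave 40.05% of them. With a floor of 3 reads over the 14 oscillatory cells (0.136 CPM) the level was 162.2-fold lower. The floor covers counting error and leaves out the spread between cells, so this fold is no lower bound. The fitted log2 fold change was -4.73 ± 0.69 (SE, n = 2 experiments, edgeR adjusted p = 0.0168).

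The second lower gene, ENSMUSG00000004668, had reads in 30% and 41.7% of the oscillatory cells, against 52% and 68.6% of the transient cells. Oscillatory cells reached at most 24.1 and 50.5 CPM, with medians of 0 in both experiments. Transient cells reached 438 CPM (median 4.88) and 389 CPM (median 2.60). The sums stood at 1.83 and 4.27 CPM in oscillatory cells, against 46.4 and 39.96 CPM in transient cells, or 25.4-fold and 9.36-fold lower. Plate1 gave 6.998-fold and Plate2 9.996-fold. The fitted log2 fold change was -3.72 ± 0.51 (SE, n = 2 experiments, edgeR adjusted p = 0.0142).

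**Figure D2:**
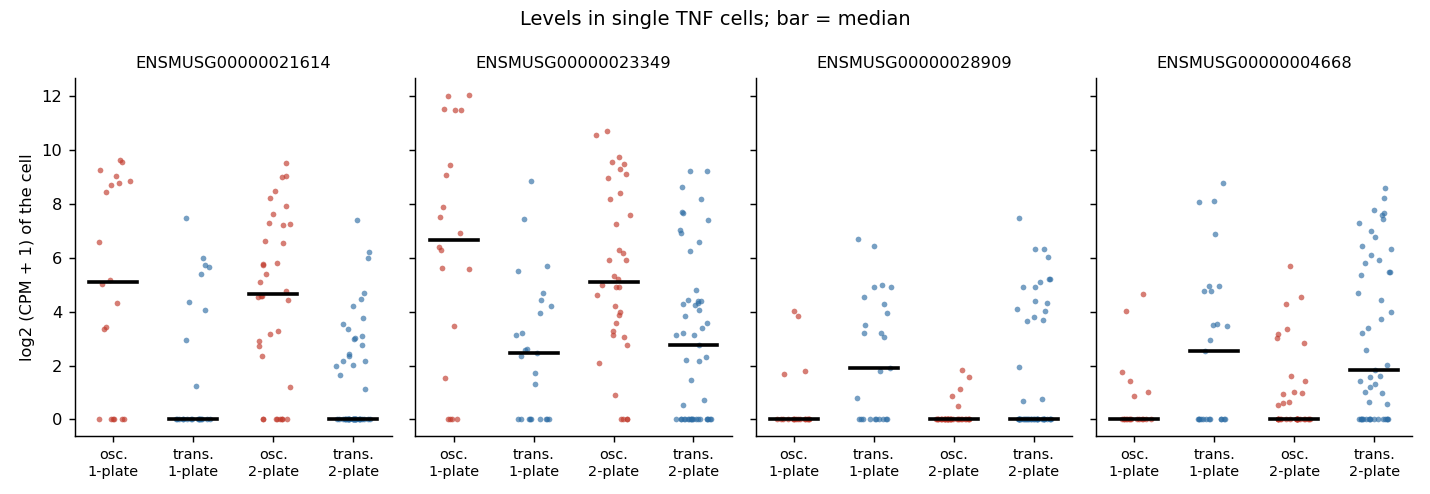
Level of 4 genes in single TNF cells (vertical axis, log2 of CPM + 1; 1 point a cell, black bar the median), with oscillatory cells in red to the left of transient cells in blue for each experiment. The medians of the 2 left genes are above 0 in oscillatory cells of both experiments, and those of the 2 right genes are at 0 in oscillatory cells of both experiments; cells of either class reach 0 for every gene.

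Both higher genes had reads together in 13 oscillatory cells of the 1-plate experiment (20 cells) and 25 of the 2-plate experiment (36 cells), against 7 and 13 transient cells (25 and 51 cells). Both lower genes had reads together in 1 oscillatory cell of each experiment, against 9 and 16 transient cells. None of the 4 genes changed direction in any other setting in which it was tested. These settings refit all or part of the cells on which the genes were picked, so a kept direction is no further test. Each gene lost its call in part of the settings. ENSMUSG00000021614 was called in 8 of 18 other settings (adjusted p 3.28e-07 to 0.701) and ENSMUSG00000023349 in 8 of 18 (0.000813 to 1). ENSMUSG00000028909 was called in 7 of the 11 in which it was tested (1.11e-10 to 0.66) and ENSMUSG00000004668 in 9 of 17 (2.37e-13 to 1). ENSMUSG00000028909 fell below the low-count filter with the highest cell of each sum left out and with either plate or the 1-plate experiment left out. It also did with sums per plate, with phase as a term and in G2M cells.

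The called genes went the same way on nearly every plate. Of the 211 higher genes 210 were higher on each of the 3 plates, and of the 48 lower genes 47 were lower on each, against 52.5% of all genes tested with 1 direction on the 3 plates. Since the call used all 3 plates, this describes the calls and does not test them. The median log2 ratio of the higher genes was 1.22 on the single plate of the 1-plate experiment, 0.86 on Plate1 of the 2-plate experiment and 1.49 on its Plate2. For the lower genes it was -1.26, -1.01 and -1.51. The median differences were thus smallest on Plate1 in both directions. Without Plate1 46 genes were higher and 3 lower, and without Plate2 27 were higher and 6 lower, fewer than the 259 by more than 1.5 times.

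A choice of genes by class difference in 1 experiment can be read in the other, whose class difference took no part in the choice. The genes open to choice were the 8361 tested, which had passed the level filter over sums of both experiments. Among cells of the 1-plate experiment 303 genes were at least 2-fold higher in oscillatory cells, and 281 of them (92.7%) were higher in oscillatory cells of the 2-plate experiment as well, against 41.9% of all genes tested. Their median log2 ratio there was 1.14, against -0.07 over all genes. Of 170 genes at least 2-fold lower in the 1-plate experiment 85.3% were lower in the 2-plate experiment, against 58.1% of all genes, with a median of -0.72. With genes chosen in the 2-plate experiment instead, 267 of 273 higher genes (97.8%, against 42.1% of all genes) and 88.7% of 150 lower genes (against 57.9%) went the same way in the 1-plate experiment, with medians of 1.24 and -0.69. Across the 8361 genes the log2 ratios of the experiments had a Pearson r of 0.64 and a Spearman rho of 0.53, and genes are not independent replicates. With G1 cells only, 75.7% of the higher and 78.7% of the lower genes chosen in the 1-plate experiment went the same way, against 47.1% and 52.9% of all genes. With G2M cells only 79.2% and 70.2% did, against 44.5% and 55.5% of all genes.

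**Figure D3:**
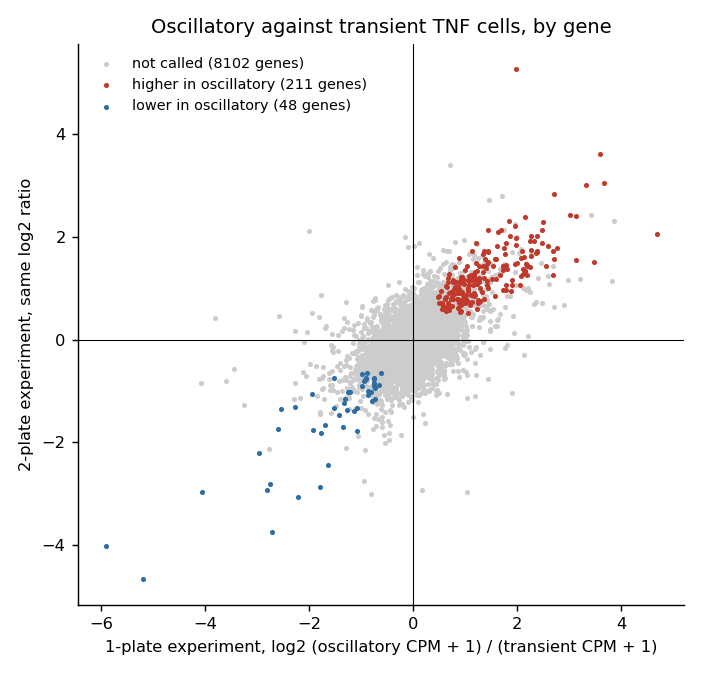
Log2 ratio of oscillatory to transient TNF cells (CPM of the summed reads + 1) for each of the 8361 genes tested, in the 1-plate experiment (horizontal axis) and the 2-plate experiment (vertical axis). The 211 genes called higher (red) lie in the upper right and the 48 called lower (blue) in the lower left; the remaining genes (grey) centre near 0.

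The difference was also visible in single cells. Genes were again drawn from the 8361 tested. For each cell the mean log2(CPM + 1) over genes at least 2-fold higher in oscillatory cells of the other experiment was taken. From it the mean over genes at least 2-fold lower there was subtracted. In the 1-plate experiment this value ran from -2.56 to 4.92 in oscillatory cells with a median of 2.56, against -2.39 to 3.53 in transient cells with a median of -0.27. In the 2-plate experiment it ran from -1.58 to 4.78 in oscillatory cells with a median of 2.22, against -1.81 to 3.59 in transient cells with a median of -0.51. The medians differed by 2.83 and 2.73, while the spread within a class was 2.27 and 1.47 (SD over cells) in oscillatory and 1.60 and 1.48 in transient cells. An oscillatory cell exceeded a transient cell in 79.2% (1-plate) and 83.8% (2-plate) of pairs.

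The classes overlapped in this value. In the 1-plate experiment 8 oscillatory cells lay above every transient cell and 3 lay below the transient median, and in the 2-plate experiment 5 and 2 did. The oscillatory median was exceeded by 2 transient cells in the 1-plate experiment and by 5 in the 2-plate experiment. Both parts of the value contributed. The mean over the higher genes had a median of 5.62 and 4.88 in oscillatory cells, against 3.63 and 3.01 in transient cells, and the mean over the lower genes 2.76 and 2.58 in oscillatory cells, against 4.07 and 3.67 in transient cells. Among cells of 1 class the value had a Pearson r between -0.06 and 0.09 with the cell's reads, over the 20, 25, 36 and 51 cells of the 4 groups. With detected genes r was -0.47 in oscillatory and -0.43 in transient cells of the 1-plate experiment, and 0.14 and -0.10 in those of the 2-plate experiment. These points share their libraries and sequencing runs, and r is given as a description.

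**Figure D4:**
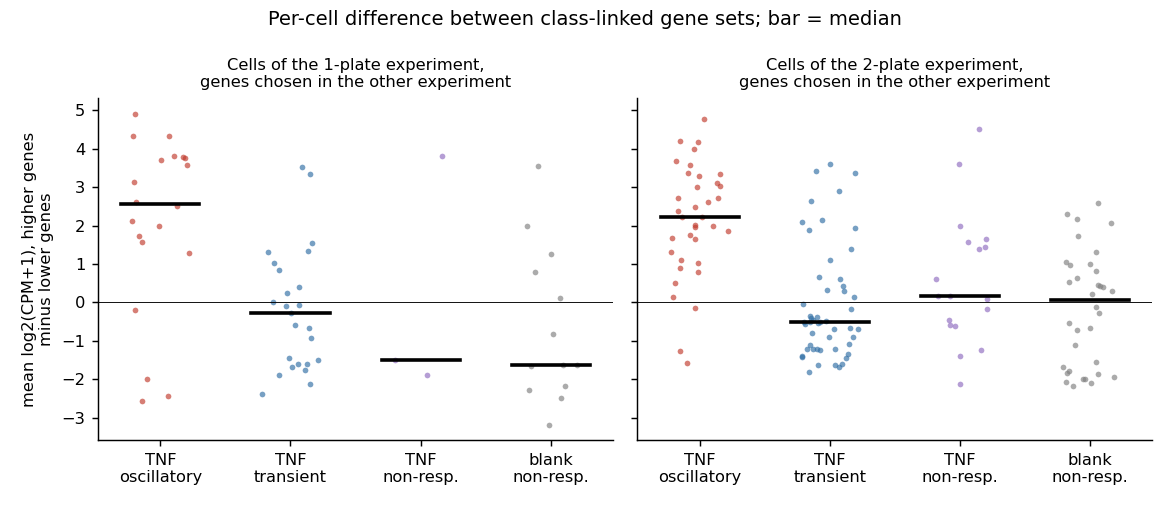
Per-cell difference between the mean log2(CPM + 1) of genes higher and of genes lower in oscillatory cells of the other experiment (vertical axis; 1 point a cell, black bar the median) in TNF oscillatory, TNF transient, TNF non-responsive and blank non-responsive cells. Oscillatory medians stand at 2.56 and 2.22, above transient medians of -0.27 and -0.51, and single cells of the classes overlap.

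Over the called genes, which were chosen on cells of all phases, the median class difference had the same sign in G1 and in G2M cells and was larger in G1, although 0 genes passed the test of the difference between phases. Over the 211 higher genes the median log2 ratio was 1.96 (1-plate) and 1.88 (2-plate) in G1 cells, and 0.95 and 0.79 in G2M cells. Over the 48 lower genes it was -2.26 and -1.83 in G1, and -0.83 and -0.97 in G2M. In the 1-plate experiment the G1 comparison rests on 4 oscillatory and 4 transient cells, and in the 2-plate experiment on 12 and 14. The per-cell value showed the same order, with the classes 4.65 and 3.31 apart in G1 and 2.59 and 2.46 apart in G2M. In G1 of the 1-plate experiment the 4 oscillatory cells (1.72 to 4.33) did not overlap the 4 transient cells (-1.77 to 1.30), while in the 2-plate experiment the 12 oscillatory cells (1.32 to 4.21) overlapped the 14 transient cells (-1.69 to 3.38).

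Tested gene by gene as an interaction, the class difference in G2M minus that in G1 passed the threshold for 0 of 8323 genes in edgeR, with 318 at an unadjusted p under 0.05 and a smallest adjusted p of 0.115. Among the 208 higher genes in that test the median difference was -1.07, it was above 0 in 14, and 70 had an unadjusted p under 0.05. Over all 8323 genes the median was 0.02 and 4255 were above 0. Among the 43 lower genes the median was 0.99, it was above 0 in 41, and 12 had an unadjusted p under 0.05. Within phases the calls were few. Sums per phase with phase as a term gave 19 higher and 3 lower genes. With G1 cells only 14 genes were higher and 1 lower, and with G2M cells only there were 0 calls from edgeR, although 642 genes had an unadjusted p under 0.05. All called genes that could be tested kept their direction with phase as a term and in G1, and 238 of 242 did in G2M. They were called on these same cells, so kept directions are a description. The 2 oscillatory S-phase cells in each experiment were too few for a comparison.

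**Figure D5:**
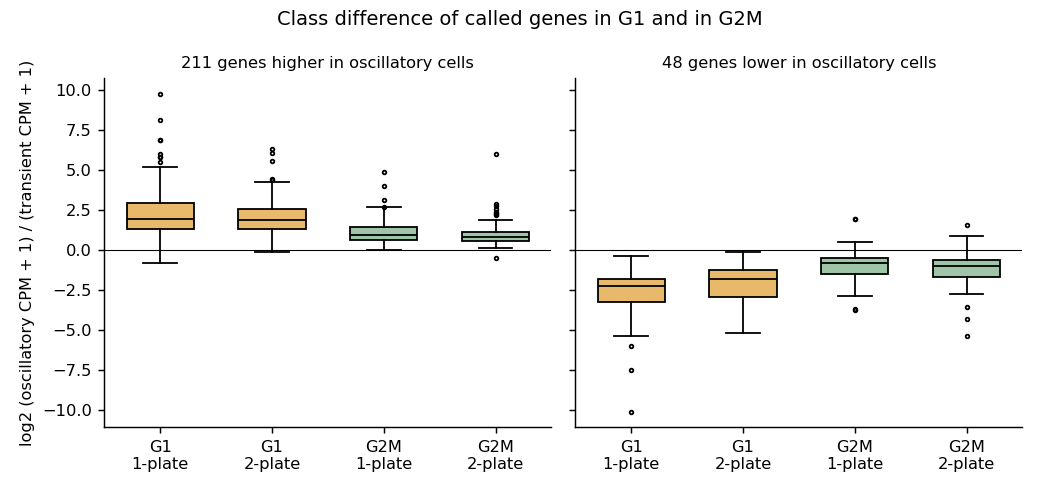
Log2 ratio of oscillatory to transient TNF cells (CPM + 1) in G1 (yellow) and G2M (green) cells of each experiment, for the 211 genes called higher (left) and the 48 called lower (right). Boxes span the quartiles with the median as a line and whiskers reach 1.5 times the box height; G1 medians lie farther from 0 than G2M medians in both experiments, and no gene passed the test of the difference between phases.

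A list of cell cycle genes could be looked up by identifier. Of 667 mouse cell cycle marker genes that the scran package lists by identifier, 568 were tested, 5 (0.88%) were higher and 1 (0.176%) was lower in oscillatory cells, against 2.52% and 0.574% of all genes tested. Their median log2 fold change was -0.06, against -0.02 over all genes. The part of the phase make-up in the class difference was not tested beyond the settings by phase given above.

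Cells that the authors classed as non-responsive give levels to set beside both classes. The cell table has blank as its other cytokine entry, and blank non-responsive cells lay nearer to transient than to oscillatory cells for 83.9% (1-plate) and 79.6% (2-plate) of the 211 higher genes, and for 41 and 42 of the 48 lower genes. Over all 8361 genes tested they lay nearer to transient cells for 60.6% and 66.1%. The median level of the higher genes was 157.4 and 138.6 CPM in oscillatory, 59.9 and 57.1 CPM in transient and 63.4 and 65.01 CPM in blank non-responsive cells. The 18 TNF non-responsive cells of the 2-plate experiment had a median of 97.1 CPM over the higher genes. They were nearer to transient cells for 97 of the 211 higher genes (46%) and 32 of the 48 lower genes (66.7%), against 49.8% of all genes, so the share among the higher genes was near that of any gene. Of these cells 6, all on Plate2, had 4207 to 6590 detected genes, and the part of this in their levels was not tested. The per-cell value had a median of -1.62 and 0.06 in blank non-responsive cells and 0.17 in TNF non-responsive cells of the 2-plate experiment (-0.47 in 7 cells on Plate1 and 0.18 in 11 on Plate2). In the 3 TNF non-responsive cells of the 1-plate experiment the median was -1.50. The value was -0.60 in 5 TNF cells classed as sustained and -1.56 in 5 blank cells classed as oscillatory, with ranges of -1.63 to 0.95 and -1.84 to 2.74. The called genes were chosen from the difference between oscillatory and transient cells, so these placements are descriptions, with no test.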

How the data were processed

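Single cells were placed in lysis buffer by micromanipulator and processed by an adapted Smart-Seq2 and Nextera protocol, per the labels' protocols. The authors deposited whole-read counts per Ensembl gene identifier; Subread 1.5.0, featureCounts and SAMtools appear in the submitters' processing notes. The sources used here do not give build, annotation or strand setting, so overlapping, antisense and near-identical genes were not told apart. The deposited cell tables give cytokine, response type, phase and a score for each phase, whose making the sources used here do not describe. Columns were tied to samples by well and plate; 357 other columns were not used. The 92 spike-ins stayed out of library sizes and tests. No molecular identifiers were used, so intervals and floors cover counting error only.

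Each sample is 1 cell, so the experiment was the replicate (n = 2). Counts were summed per experiment, cytokine and class with at least 5 cells (10 sums of 6371417 to 81353924 reads, 2 residual degrees of freedom). Whether separate animals were used is not in the labels, so p-values measure a spread that may be technical. edgeR 4.0.16 in R 4.3.3 was run with TMM factors, an experiment term (the replicate block, since the labels show separate flow cells), the quasi-likelihood test and two-sided Benjamini-Hochberg adjusted p at 0.05. Standard errors are the size of a log2 fold change over the root of its F statistic. Log2 ratios used a pseudocount of 1 CPM. Alternatives used DESeq2 1.42.0, limma 3.58.1 and the settings named in the closing section; scran 1.30.0 supplied cell cycle markers. The compared cells, the lists, the low-count filter and the tests were chosen with earlier results of these data known. The interaction test, the reading of genes chosen in the other experiment, the per-cell value and the scran list were added after the files were seen. The rule for named genes was limited to 2 per direction since the identifiers carry no names, and gene lists by symbol were not analysed here. The fit was also run on counts simulated for the class sums. Those counts were not drawn cell by cell, so that run does not measure the spread between cells.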

Additional observations from a re-analysis of the deposited data

Results flagged for a closer look

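Among 25 groups of 4 to 10 cells formed by class, experiment, plate and phase, 2 held a cell whose per-cell value lay far from the others of its group, and chance gives about 1 in 20. Among the 4 transient TNF cells in S phase on Plate1 of the 2-plate experiment 1 cell stood at 3.59, while the others ran from -1.60 to -0.90. Among the 4 blank non-responsive cells in S phase on the same plate 1 cell stood at 0.989, while the others ran from -1.99 to -1.83. That cell had 297165 reads, against 680136 to 1703860 in the others, and the part of depth in its value was not tested.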

How the results depend on the processing

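The share of tested genes called, 3.1% (259 genes), became 0.199% with edgeR's default low-count filter (33 genes) and 0.604% with no filter (130 higher and 26 lower). It became 6.98% with DESeq2 (584 genes), 13.3% with the 4 oscillatory and transient sums alone (1144 genes) and 0.49% with limma on the mean CPM over cells (41 genes). With spike-in factors it was 0.012% (1 gene), with phase as a term 0.27% (22 genes), with G1 cells 0.182% (15 genes) and with G2M cells 0% (642 genes at an unadjusted p under 0.05). Leaving out 1 plate at a time gave 0% to 0.589%, and 0% without the 1-plate experiment. Without the replicate block, which pairs the classes within an experiment, 0% was called (533 genes at an unadjusted p under 0.05). The cause of these differences was not tested. Relative log expression factors, sums per plate, thinning (which also drops 24 shallower cells of 238), cells with at least 8000 detected genes and leaving out the highest cell of each sum gave 262 to 290 genes. These close counts did not stand for the same genes. All of the 259 stayed called with relative log expression factors. In each of the other settings of that range, part of the 259 that could be tested lost their call, the largest part with sums per plate. Sums per plate also take the plates of the 2-plate experiment as separate units, although they belong to 1 experiment. The fit without the 1-plate experiment does so too. Where tested, all 259 genes kept their direction in every setting but G2M cells alone, where 238 of 242 did. The log2 fold changes of the 4 named genes kept their call in 32 of their comparisons with another setting and lost it in 32, with no change of direction. All settings reuse cells on which these genes were called or picked, so kept directions are no further test. Gaps between classes in the per-cell value ran from 2.32 to 4.65 over the settings for which they were taken, S phase not among them. In S phase, with 2 oscillatory cells in each experiment, the medians lay 1.02 (1-plate) and 1.27 (2-plate) apart. There an oscillatory cell exceeded a transient cell in 42.9% and 91.7% of pairs. A fit of S-phase cells alone was not run, since each experiment has 2 oscillatory S-phase cells, and gene lists by symbol gave no value. With 2 experiments and 2 residual degrees of freedom, calls rest partly on the spread of other genes.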
